A study of Mus musculus with 12 samples.

Results

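The Gadd45 family of the mouse has 3 genes, Gadd45a, Gadd45b and Gadd45g, and each had 1 row among the 24538 gene rows of the deposited expression table. They were taken by symbol, and the family was chosen by the measured values of Gadd45g, which were higher in Smad4 knockout than in wild-type CD4+ T cells at 12 h in these data. The members' values in that contrast are therefore a description with no test. All 3 genes had a mean deposited value of at least 3, as did 12436 rows, over which the tests below were adjusted.

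RNA was sequenced from CD4+ T cells that came from spleens and lymph nodes of C57BL/6 mice. The cells were activated in culture under the condition labelled IL6+TGFbR inhibitor, that is, with the cytokine IL-6 while TGF-β receptor signalling was blocked. There were 4 groups of 3 libraries: CD4cre;Smad4fl/fl cells (KO) and WT cells at 12 h, and KO and WT cells at 3 h. In the KO cells a Cre recombinase driven by Cd4 removes the floxed part of Smad4, the shared partner of the receptor-regulated SMADs, and Cd4 is already active in thymocytes that also give rise to CD8 T cells. The labels give neither the age of the mice nor whether WT cells carry the Cre or the floxed allele, and they do not say whether the libraries of a group came from separate mice, so p-values measure the spread between libraries only.

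GADD45 proteins are small, acidic, mostly nuclear proteins without enzyme activity that are made in response to stress, cytokines and antigen receptor signals. They bind and activate the kinase MAP3K4, which drives the p38 and JNK kinases, and they also bind PCNA, p21 and the CDK1 and cyclin B1 complex in growth arrest. In mouse CD4+ T cells Gadd45b and Gadd45g are known for sustaining p38 activity and interferon gamma production after IL-12 and IL-18. Gadd45a is known for restraining p38 activation by kinases close to the T cell receptor.

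In GENCODE (GRCm38) Gadd45g lies on chromosome 13 from 51846678 to 51848468 on the plus strand, Gadd45b on chromosome 10 from 80930073 to 80932204 on the plus strand, and Gadd45a on chromosome 6 from 67035096 to 67037457 on the minus strand. Their merged exons span 1173, 1589 and 1764 bases. No annotated gene overlaps Gadd45g or Gadd45b. The transcript E230016M11Rik overlaps Gadd45a on the opposite strand, and reads of the pair cannot be told apart where strand is not kept. Its own row had group means from 2.58 to 2.84, below the filter.

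The 250 bases before the RefSeq start of each gene (GRCm38.p6, gene strand, 5′ to 3′) are shown because all 3 genes were lower at 12 h than at 3 h while the genotypes separated at 12 h on Gadd45g. Capitals mark CACGTG, the E-box, and CAGAC or its reverse complement GTCTG, a short SMAD-binding motif. The windows are chr13:51846425-51846674 (plus strand) for Gadd45g, chr10:80929841-80930090 (plus strand) for Gadd45b and chr6:67037408-67037657 (minus strand) for Gadd45a.
Gadd45g: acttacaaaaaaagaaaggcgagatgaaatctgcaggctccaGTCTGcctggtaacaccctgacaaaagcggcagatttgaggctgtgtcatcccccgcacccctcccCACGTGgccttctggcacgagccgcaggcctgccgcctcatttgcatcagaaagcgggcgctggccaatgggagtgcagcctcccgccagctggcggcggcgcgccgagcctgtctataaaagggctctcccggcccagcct
Gadd45b: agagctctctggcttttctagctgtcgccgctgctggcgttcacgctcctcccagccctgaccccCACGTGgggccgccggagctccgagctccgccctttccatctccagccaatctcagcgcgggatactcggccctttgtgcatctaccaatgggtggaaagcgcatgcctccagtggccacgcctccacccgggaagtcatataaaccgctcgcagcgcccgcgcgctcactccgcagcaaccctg
Gadd45a: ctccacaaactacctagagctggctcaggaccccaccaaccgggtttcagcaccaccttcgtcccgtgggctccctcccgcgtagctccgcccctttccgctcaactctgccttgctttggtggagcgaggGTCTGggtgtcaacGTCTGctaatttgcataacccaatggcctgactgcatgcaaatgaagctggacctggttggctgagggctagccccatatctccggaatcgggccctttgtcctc
The Gadd45g and Gadd45b windows each held 1 E-box, starting 142 and 185 bases before the start. Of 32851 RefSeq promoter windows of this length 6.02% held 1 on either strand. The SMAD motif occurred once in Gadd45g, at 208 bases, and at 119 and 105 bases in Gadd45a. It was not in the Gadd45b window, and 42.2% of all windows held it. A search of both strands found no STAT motif (TTCNNNGAA, 7.02% of windows), AP-1 motif (TGANTCA, 6.75%) or CRE (TGACGTCA, 1.55%) in the 3 windows. An NF-κB motif, read as GGGA, any 4 bases and CC, began 20 bases before the Gadd45g start, was not in the other windows of the family and occurred in 17.6% of all windows.

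Several facts of the libraries bear on what follows. Values are the deposited log2 values, whose depth is unknown and whose form is that of a regularised log, which pulls low genes together, so the fold values understate changes of low genes. Smad4 itself was not lower in the libraries labelled KO, the difference being 0.02 ± 0.06 at 12 h (limma adjusted p = 1.00, n = 3 per group) and 0.00 ± 0.06 at 3 h (0.993). A value over the whole gene can keep reads of the exons that remain, so it does not check the labels, and the groups are called KO-labelled below. The labels state female mice, yet in the 4 replicate 2 libraries, 1 in each group, Xist did not exceed 5.70 and the Y-linked Ddx3y was 12.3 or more. In the 8 other libraries Xist was 15.1 or more and Ddx3y did not exceed 2.77. Genotype differences of Gadd45g and Gadd45a, and the Gadd45a change with time, are given with and without those libraries. All 8 CD4 T cell markers passed the filter, with Cd4 between 13.3 and 14.5 in the group means. Their sum (log2) was higher at 12 h, at 16.93 to 17.06 in KO-labelled and 16.95 to 17.00 in WT libraries. At 3 h it was 16.76 to 16.86 in KO-labelled and 16.73 to 16.78 in WT libraries. All 8 B cell markers passed the filter too, and their summed level (log2) was 8.23 to 8.48 in KO-labelled and 8.54 to 8.87 in WT libraries at 12 h, and 8.91 to 9.24 in KO-labelled and 9.23 to 9.51 in WT libraries at 3 h. Of the 8 myeloid markers 6 passed, with Csf1r (group means up to 2.29) and Cd14 (up to -0.34) below the filter, and the 8 summed to 5.69 to 5.98 at 12 h and 6.50 to 7.16 at 3 h. Of the 8 CD8 T and NK cell markers 5 passed, with Klrk1 (up to 2.39), Klrb1c (up to 0.67) and Ncr1 (up to -0.45) below the filter, and the 8 summed to 9.67 to 9.73 in KO-labelled and 9.80 to 9.90 in WT libraries at 12 h, and to 10.39 to 10.79 in KO-labelled and 10.56 to 10.72 in WT libraries at 3 h. No marker was listed at 0, but on this scale 0 marks only rows at 0 in every library, so a low value does not show expression. The B cell, myeloid, and CD8 T and NK cell sums were lower at 12 h than at 3 h. The B cell sums and the CD8 T and NK cell sums did not overlap between genotypes at 12 h. At that time limma called 0 of the 8 B cell and 0 of the 5 kept CD8 T and NK cell markers by genotype. Over all genes 0.667% were called. Of the B cell differences 0 were positive and 8 negative, and of the CD8 T and NK cell ones 2 were positive and 3 negative. The part of these markers in the results was not tested. In bulk RNA, fewer cells of a type and less RNA per cell cannot be told apart.

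Gadd45g, the family member known as a cytokine response gene in T cells, was the member on which the genotypes differed at 12 h. Its level was 7.41, 7.47 and 7.78 in the KO-labelled libraries and 6.26, 5.77 and 6.50 in the WT libraries at 12 h. Each KO-labelled library was above each WT library at 12 h, though the share of all genes that separate so was not counted. The difference was 1.38 ± 0.20 (SE), or 2.60-fold, and 0.0482% of the 12436 genes had a larger positive difference. This is the contrast that chose the gene, so no test is given. At this time 0.667% of all genes were called, 0.499% higher and 0.169% lower in KO-labelled cells. Between libraries of the same number the difference was 1.16, 1.70 and 1.28. Without the replicate 2 libraries it was 1.22 ± 0.24, and leaving out any 1 of the 12 libraries gave 1.18 to 1.54.

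At 3 h the Gadd45g level was 8.98, 9.50 and 9.64 in the KO-labelled libraries and 9.47, 9.26 and 9.23 in the WT libraries. The groups overlapped, and the KO-labelled libraries were both the lowest and the highest. The mean was 9.37 ± 0.34 in KO-labelled and 9.32 ± 0.13 in WT libraries (SD, n = 3 each), a difference of 0.054 ± 0.20 with a 95% interval of -0.37 to 0.48 (limma adjusted p = 0.967). The sign of the difference changed without the replicate 2 libraries (-0.039 ± 0.24) and without KO-labelled replicate 2 (-0.0072) or 3 (-0.080) of 3 h. The difference at 12 h exceeded that at 3 h by 1.32 ± 0.28, a value that contains the contrast that chose the gene and is not tested.

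With time the Gadd45g level was lower in both genotypes. In KO-labelled cells the 12 h level was 28.3% of the 3 h level, a log2 difference of -1.82 ± 0.20, and in WT cells it was 11.3%, a log2 difference of -3.14 ± 0.20. All 12 h libraries lay below all 3 h libraries of the same genotype. Smad4, not called with time (-0.11 in KO-labelled and -0.13 in WT cells), did not overlap between times either. The share of all genes without overlap was not counted, here and for the other members below. Of all genes tested 3.10% had a larger negative difference in KO-labelled cells and 0.700% in WT cells. Both comparisons use the 12 h libraries that chose the gene, so they are given without a test.

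**Figure D1:**
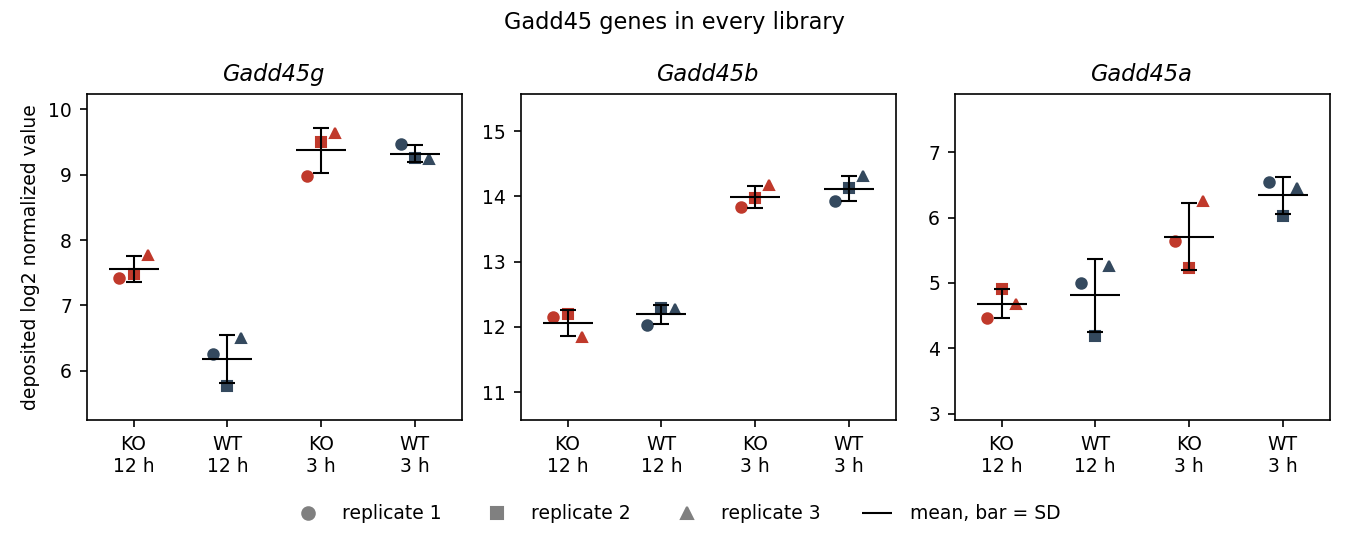
Deposited log2 value (vertical axis, each panel spanning the same range) of Gadd45g, Gadd45b and Gadd45a in the 12 libraries, by group along the horizontal axis; symbols are replicate numbers, KO-labelled libraries are red and WT libraries dark blue, and bars are mean ± SD of 3 libraries. Gadd45g at 12 h stands at 7.41 to 7.78 in KO-labelled and 5.77 to 6.50 in WT libraries, while Gadd45b and Gadd45a overlap between genotypes at both times.

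Gadd45b, an immediate response gene of NF-κB and TGF-β signalling, overlapped between genotypes and fell with time in both. At 12 h its level was 12.15, 12.19 and 11.84 in the KO-labelled libraries and 12.03, 12.28 and 12.27 in the WT libraries. At 3 h it was 13.83, 13.97 and 14.17 in the KO-labelled libraries and 13.92, 14.13 and 14.30 in the WT libraries. The genotypes overlapped at both times and the times did not. The genotype difference at 3 h was -0.13 ± 0.11, with a 95% interval of -0.37 to 0.11 (limma adjusted p = 0.850, n = 3 per group), and same-numbered libraries differed by -0.09, -0.16 and -0.13. At 12 h it was -0.13 ± 0.11, given without a test.

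At 12 h Gadd45b was lower than at 3 h by a log2 difference of -1.93 ± 0.11 in KO-labelled cells, or 3.81-fold (limma adjusted p = 5.74e-10, n = 3 per group), and of -1.93 ± 0.11 in WT cells, or 3.80-fold (limma adjusted p = 5.73e-10). Time changed most of the transcriptome: in KO-labelled cells 68.0% of all genes were called, 34.3% higher and 33.6% lower at 12 h, and in WT cells 67.9% were called, 34.3% higher and 33.6% lower. With median centring the 4269 higher and 4184 lower calls in KO-labelled cells became 3459 higher and 5108 lower. Against that background the calls of both testable members, Gadd45b and Gadd45a, say little. By size, 2.73% of genes had a larger negative difference in KO-labelled cells and 2.85% in WT cells. The difference between the genotype contrasts at 12 h and 3 h was -0.00 ± 0.16.

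Gadd45a, the p53-inducible member, was the least abundant and had the largest standard error of the family. At 12 h its level was 4.47, 4.90 and 4.68 in the KO-labelled libraries and 4.997, 4.18 and 5.25 in the WT libraries. At 3 h it was 5.64, 5.23 and 6.26 in the KO-labelled libraries and 6.55, 6.02 and 6.45 in the WT libraries. The WT libraries spanned the KO-labelled ones at 12 h, and at 3 h the highest KO-labelled library lay above the lowest WT library. At 3 h the KO-labelled mean was 5.71 ± 0.52 and the WT mean 6.34 ± 0.28 (SD, n = 3 each). The difference of -0.63 ± 0.30 was not called (limma adjusted p = 0.554, 95% interval -1.26 to 0.0048), and same-numbered libraries differed by -0.91, -0.79 and -0.19. Without the replicate 2 libraries it was -0.55 ± 0.28 (limma adjusted p = 0.584). At 12 h the difference was -0.13 ± 0.30 and is not tested; without the replicate 2 libraries it was -0.55 ± 0.28, and the replicate 2 pair alone had the KO-labelled library higher (0.72, against -0.53 and -0.57 in the other pairs).

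With time Gadd45a fell in both genotypes. The 12 h minus 3 h difference was -1.03 ± 0.30 in KO-labelled cells, or 2.04-fold (limma adjusted p = 0.00631, n = 3 per group), and -1.53 ± 0.30 in WT cells, or 2.89-fold (limma adjusted p = 0.000280). The times did not overlap in either genotype. Larger negative differences were seen in 9.66% of genes in KO-labelled cells and 4.91% in WT cells. Whether the fall differs between genotypes was not tested, because the test would use the 12 h contrast that chose the family. The value was 0.50 ± 0.42. Without the replicate 2 libraries the 12 h minus 3 h difference was -1.38 ± 0.28 in KO-labelled and -1.38 ± 0.28 in WT cells.

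**Figure D2:**
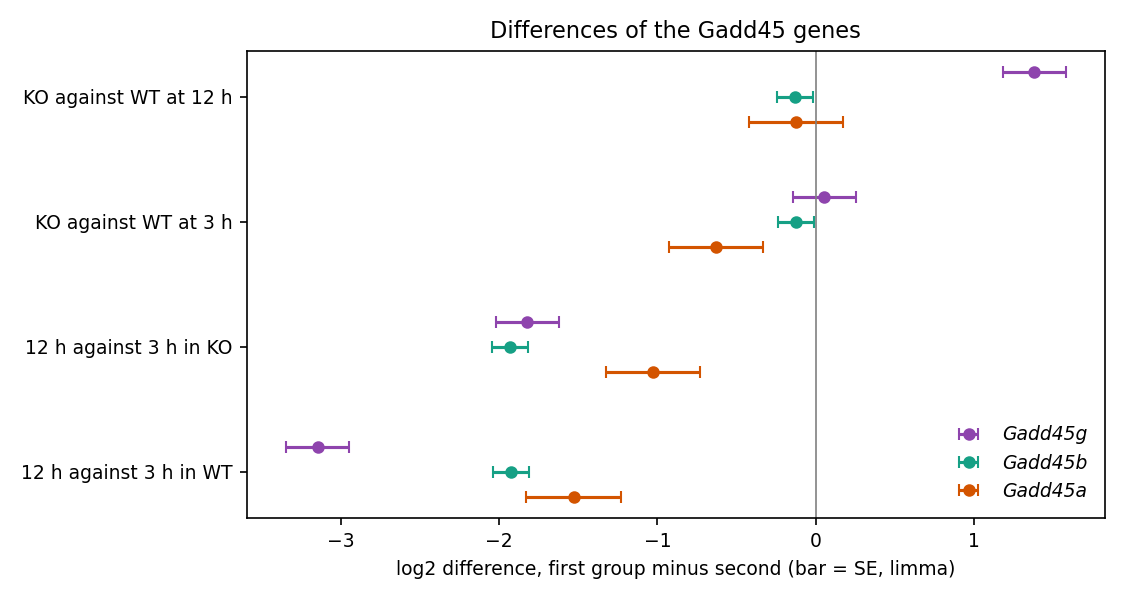
Log2 difference (horizontal axis) of each Gadd45 gene in the 4 comparisons (vertical axis), first-named group minus second, with SE bars from limma. Gadd45g at 12 h stands at 1.38 while the other genotype differences lie between -0.63 and 0.054, and all 6 of the differences with time are negative.

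In the comparison of genotypes at 3 h, where each member could be tested, limma called 0 of 3 members higher and 0 lower, and 0 had an unadjusted p under 0.05. The background at 3 h was 1.05% of genes called, 0.298% higher and 0.748% lower, and 1131 of 12436 genes had an unadjusted p under 0.05. With the replicate number as a block 200 genes were called at 3 h in place of 130, and still none of the 3 members, but Gadd45a then had an unadjusted p of 0.0270 (limma adjusted p = 0.397; -0.63 ± 0.26), so that 1 of 3 had an unadjusted p under 0.05.

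Levels of the members can be set side by side only per length, here as the deposited log2 value minus log2 of the merged exon length in kilobases. The order was Gadd45b, Gadd45g and Gadd45a in every one of the 12 libraries. At 12 h Gadd45b stood at 11.39 ± 0.19 in KO-labelled and 11.53 ± 0.14 in WT libraries on this scale, and at 3 h at 13.32 ± 0.17 in KO-labelled and 13.45 ± 0.19 in WT libraries (SD, n = 3 each). Gadd45g stood at 7.32 ± 0.20 in KO-labelled and 5.95 ± 0.37 in WT libraries at 12 h, and at 9.14 ± 0.34 in KO-labelled and 9.09 ± 0.13 in WT libraries at 3 h. Gadd45a stood at 3.87 ± 0.22 in KO-labelled and 3.99 ± 0.56 in WT libraries at 12 h, and at 4.89 ± 0.52 in KO-labelled and 5.52 ± 0.28 in WT libraries at 3 h. Every step in that order was larger than the spread between libraries. The gap from Gadd45g down to Gadd45a was 3.46 ± 0.27 in KO-labelled and 1.95 ± 0.19 in WT libraries at 12 h, and 4.25 ± 0.52 in KO-labelled and 3.57 ± 0.23 in WT libraries at 3 h. The smallest gap, in WT cells at 12 h, was 3.87-fold.

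Over all genes 0.667% were called by genotype at 12 h and 1.05% at 3 h. Lists of these sizes therefore hold few calls or none at the background share, and a count of 0 sets no list apart. An unadjusted p under 0.05 occurred in 792 of 12436 genes at 12 h and in 1131 at 3 h. These are the background for the unadjusted counts of the lists below. Of 22 genes listed for the MAP3K4, p38 and JNK cascade 20 passed the filter. Beside kinases that carry GADD45 signals the list holds Traf2, Tab1 and Atf2, which are not kinases. It also holds Zap70 and Lck, kinases close to the T cell receptor. At 12 h limma called 0 higher and 0 lower in KO-labelled cells, with 3 higher and 3 lower at an unadjusted p under 0.05, and the median was 0.03 against -0.01 over all genes. The largest difference was in Map2k6, a p38-activating kinase (0.28 ± 0.27, limma adjusted p = 1.00). At 3 h it called 0 higher and 1 lower, with 2 higher and 1 lower at an unadjusted p under 0.05, and the median was 0.01 against -0.00. The gene called was Mapk14, which encodes p38 alpha, at 11.35 ± 0.02 in KO-labelled and 11.66 ± 0.15 in WT libraries (SD, n = 3 each; -0.31 ± 0.07, limma adjusted p = 0.0389). That call ended under 15 of 22 alternatives, among them those without KO-labelled or WT replicate 1 of 3 h, and the one without the replicate 2 libraries (adjusted p = 0.176). Map3k4, the kinase that GADD45 proteins bind, differed by 0.01 ± 0.10 at 12 h (limma adjusted p = 1.00) and by 0.08 ± 0.10 at 3 h (0.914).

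With time the cascade had 4 genes higher and 13 lower at 12 h in KO-labelled cells and 4 higher and 13 lower in WT cells, of 20 kept. Over all genes 34.3% were called higher and 33.6% lower in each genotype, and the counts with time in the lists below stand against the same shares. The median was -0.35 in KO-labelled and -0.48 in WT cells, against -0.00 over all genes in each. The largest falls were in Mapk12, p38 gamma (-3.14 ± 0.18 in KO-labelled and -2.72 ± 0.18 in WT cells), Mapk11, p38 beta (-2.50 ± 0.08 in KO-labelled and -2.49 ± 0.08 in WT cells), and Map2k3, a p38-activating kinase (-2.20 ± 0.07 in KO-labelled and -2.21 ± 0.07 in WT cells). Map2k6, the other dedicated p38-activating kinase, rose (2.39 ± 0.27 in KO-labelled and 2.15 ± 0.27 in WT cells), though its 3 h level, 3.22 in KO-labelled and 3.18 in WT cells, was near the filter. The limma adjusted p of these 4 genes ran up to 9.18e-07 in KO-labelled and 2.89e-06 in WT cells. Mapk14 and Map3k4 rose by 1.77 ± 0.07 and 1.61 ± 0.10 in KO-labelled cells and by 1.62 ± 0.07 and 1.69 ± 0.10 in WT cells, while Gadd45b and Gadd45a fell.

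Genes listed for the interferon gamma programme of IL-12 and IL-18 mostly had negative differences between KO-labelled and WT cells. Beside Ifng, whose production Gadd45b and Gadd45g are known to sustain, the list holds regulators and receptor chains. The receptor chains for IL-12, IL-18 and interferon gamma are not such outputs. Of 16 listed genes 15 passed the filter. At 12 h 14 of the 15 differences were negative, beside 6619 of 12436 over all genes, with a median of -0.21 against -0.01. There limma called 0 higher and 0 lower, with 0 higher and 2 lower at an unadjusted p under 0.05, and Il18r1 differed most (-0.91 ± 0.48, 0.881). At 3 h 14 of 15 were negative as well, beside 6254 of 12436 over all genes, with a median of -0.42 against -0.00. With an unadjusted p under 0.05 there were 0 higher and 8 lower at 3 h. Limma called 0 higher and 3 lower at 3 h. They were Il18r1, an IL-18 receptor chain (5.17 ± 1.17 in KO-labelled and 7.38 ± 0.84 in WT libraries, SD; -2.21 ± 0.48), Ifngr1, an interferon gamma receptor chain (9.41 ± 0.19 in KO-labelled and 10.76 ± 0.86 in WT libraries; -1.35 ± 0.28), and Il12rb2, an IL-12 receptor chain (7.21 ± 0.14 in KO-labelled and 8.34 ± 0.55 in WT libraries; -1.12 ± 0.25). Their limma adjusted p were 0.0398, 0.0319 and 0.0438 (n = 3 per group), and the calls ended under 13, 9 and 14 of 22 alternatives, for all 3 when KO-labelled replicate 1 or 2 or WT replicate 1 or 3 of 3 h was left out. Ifng itself differed by -0.59 ± 0.36 at 12 h and -0.53 ± 0.36 at 3 h (0.989 and 0.762), and Tbx21, the TH1 transcription factor, by -0.23 ± 0.19 and -0.32 ± 0.19 (1.00 and 0.724). Earlier results had already shown lower TH1 genes here, so this list is no independent evidence. Its genes were measured in the same libraries, so their signs are not separate observations.

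With time the programme moved in both directions. At 12 h 4 genes were higher and 5 lower than at 3 h in KO-labelled cells, and 2 higher and 8 lower in WT cells. Tbx21 had the largest fall, of -4.05 ± 0.19 in KO-labelled and -4.14 ± 0.19 in WT cells (limma adjusted p = 6.75e-11 and 5.40e-11). Ifng changed by -1.28 ± 0.36 in KO-labelled and by -1.22 ± 0.36 in WT cells (limma adjusted p = 0.00513 and 0.00704). Il12rb1, the other IL-12 receptor chain, rose by 1.50 ± 0.08 in KO-labelled cells (limma adjusted p = 3.86e-10). In WT libraries Il12rb1 was higher at 12 h too, averaging 13.77 against 12.49 at 3 h.

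**Figure D3:**
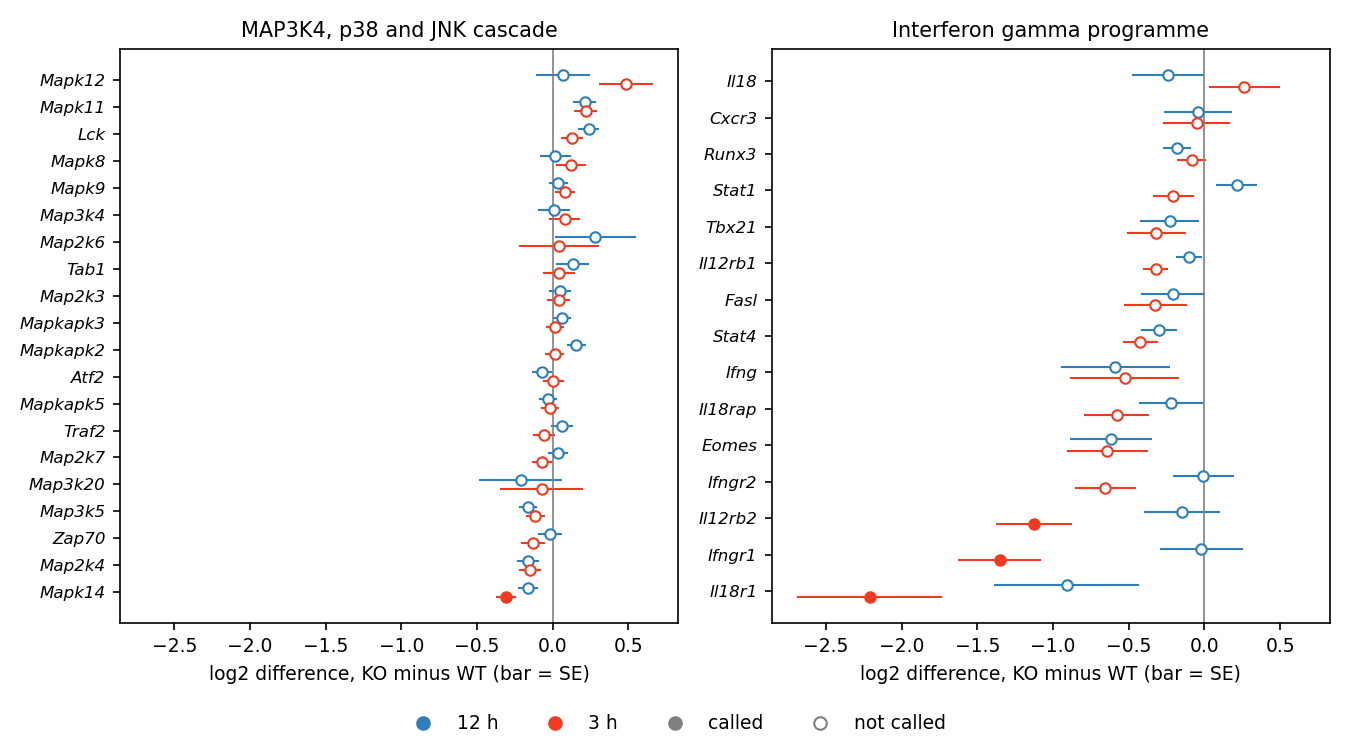
Log2 difference, KO-labelled minus WT, at 12 h (blue) and 3 h (red) for the kept genes of the MAP3K4, p38 and JNK cascade (left) and of the interferon gamma programme (right), with SE bars; filled points were called by limma. Differences on the left run from -0.31 (Mapk14, called, 3 h) to 0.48 (Mapk12, not called, 3 h). On the right 14 of 15 genes are negative at each time, and Il18r1 reaches -2.21 at 3 h. Over all 12436 genes 6619 differences are negative at 12 h and 6254 at 3 h.

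Among factors listed as upstream regulators of Gadd45 genes, Smad3 was called by genotype. All 19 listed regulators passed the filter. At an unadjusted p under 0.05, 2 were higher and 1 lower at 12 h, and 2 higher and 4 lower at 3 h. Limma called 1 higher and 0 lower at 12 h, and 1 higher and 0 lower at 3 h. Both times this was Smad3, a receptor-regulated SMAD, with 11.82 ± 0.11 in KO-labelled and 11.15 ± 0.04 in WT libraries at 12 h, and 14.28 ± 0.05 in KO-labelled and 13.95 ± 0.01 in WT libraries at 3 h (SD, n = 3 each). The differences were 0.67 ± 0.06 (limma adjusted p = 2.13e-05), called under each of 22 alternatives, and 0.32 ± 0.06 (0.0198), with the call lost under 7 of 22, those without KO-labelled replicate 1 or 2 or WT replicate 1 or 3 of 3 h included. With time 4 regulators were higher and 10 lower in KO-labelled cells, and 4 higher and 11 lower in WT cells. Smad3 (-2.46 ± 0.06 in KO-labelled and -2.80 ± 0.06 in WT cells), the early growth response factor Egr1 (-2.01 ± 0.11 in KO-labelled and -2.08 ± 0.11 in WT cells) and Irf1 (-1.47 ± 0.10 in KO-labelled and -1.74 ± 0.10 in WT cells) were among the falls, and the repair gene Brca1 rose (2.29 ± 0.22 in KO-labelled and 1.70 ± 0.22 in WT cells). The NF-κB subunit gene Nfkb1 changed by -1.29 ± 0.07 in KO-labelled and by -1.30 ± 0.07 in WT cells. Of these 5 genes the largest limma adjusted p was 1.67e-07 in KO-labelled and 4.67e-06 in WT cells.

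The proteins that GADD45 binds in growth arrest and repair are encoded by 10 listed genes, all kept. At 12 h limma called 0 by genotype, with 0 higher and 1 lower at an unadjusted p under 0.05, and at 3 h it also called 0, with 1 higher and 0 lower. Cdk1, the mitotic kinase, had 6.96 in KO-labelled and 7.55 in WT libraries at 12 h (-0.59 ± 0.25, limma adjusted p = 0.690), and Ccnb1, cyclin B1, had 4.50 in KO-labelled and 4.88 in WT libraries at 3 h (-0.38 ± 0.24, 0.743). With time 6 rose and 2 fell in KO-labelled cells, and 7 rose and 2 fell in WT cells. Cdk1 rose by 1.83 ± 0.25 in KO-labelled and by 2.69 ± 0.25 in WT cells, Ccnb1 by 1.96 ± 0.24 in KO-labelled and 1.93 ± 0.24 in WT cells, and the kinase gene Aurka by 1.26 ± 0.17 in KO-labelled and 1.47 ± 0.17 in WT cells (limma adjusted p at most 9.47e-06). Cdkn1a, which encodes p21, changed by -0.89 ± 0.14 in KO-labelled cells (4.47e-05). In WT libraries Cdkn1a was lower at 12 h too, averaging 11.90 against 12.57 at 3 h. Gadd45gip1, whose product binds GADD45 proteins but belongs to another family, rose by 0.59 ± 0.12 in KO-labelled and 0.52 ± 0.12 in WT cells (0.000442 and 0.00135).

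GADD45 proteins are also linked to active DNA demethylation, and 11 of 12 listed genes of that process were kept. By genotype limma called 0 at 12 h, with 0 in either direction at an unadjusted p under 0.05, and 0 at 3 h, with 0 higher and 2 lower. The largest differences were Neil2, a DNA glycosylase (0.40 ± 0.29 at 12 h, limma adjusted p = 1.00), and Tet1, a methylcytosine oxidase (-0.72 ± 0.43 at 3 h, 0.712). With time 5 were higher and 2 lower in KO-labelled cells, and 5 higher and 1 lower in WT cells. The methylcytosine oxidase gene Tet2 changed by -2.03 ± 0.10 in KO-labelled and by -1.94 ± 0.10 in WT cells, and Mbd4, a glycosylase, rose by 1.84 ± 0.17 in KO-labelled and 1.44 ± 0.17 in WT cells (limma adjusted p at most 9.44e-08 in KO-labelled and 1.45e-06 in WT cells).

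Among genes that share a stress or p53 response with the family, all 20 p53 target genes were kept. Limma called 0 at 12 h, with 1 higher and 0 lower at an unadjusted p under 0.05, and 0 at 3 h, with 1 higher and 2 lower. Trp53inp1, a p53 cofactor, had 12.42 in KO-labelled and 11.77 in WT libraries at 12 h (0.65 ± 0.16, limma adjusted p = 0.0892), and Plk2, a stress-induced kinase, had 9.86 in KO-labelled and 10.35 in WT libraries at 3 h (-0.49 ± 0.23, 0.538). Of 15 other growth arrest and DNA damage inducible genes 14 were kept, and limma called 0 at 12 h, with 1 higher and 0 lower at an unadjusted p under 0.05, and 0 at 3 h, with 0 higher and 2 lower. At the background shares of 0.667% and 1.05% neither count of 0 sets these lists apart. Btg1 at 12 h (0.30 ± 0.08, 0.140) and Klf6 at 3 h (-0.46 ± 0.12, 0.101) differed most in that list.

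With time 4 of the 14 genes of this last list were higher and 8 lower in KO-labelled cells, and 4 higher and 8 lower in WT cells, beside 34.3% higher and 33.6% lower over all genes, with medians of -0.51 in KO-labelled and -0.67 in WT cells. Ier3, an immediate early gene, changed by -4.08 ± 0.19 in KO-labelled and by -3.85 ± 0.19 in WT cells. The antiproliferative Btg1 changed by -1.89 ± 0.08 in KO-labelled and by -2.10 ± 0.08 in WT cells. Ppp1r15a, a phosphatase subunit gene, changed by -1.60 ± 0.06 in KO-labelled and by -1.84 ± 0.06 in WT cells. The limma adjusted p of these genes was at most 5.82e-11 in KO-labelled and 1.02e-10 in WT cells. The p53 targets were split, with 8 higher and 8 lower in KO-labelled cells and 8 higher and 7 lower in WT cells. Btg2, a relative of Btg1 that stands in both lists, changed by -2.60 ± 0.07 in KO-labelled and by -2.58 ± 0.07 in WT cells. Perp, a p53-induced membrane protein gene, rose by 1.83 ± 0.23 in KO-labelled and by 1.82 ± 0.23 in WT cells, and Gtse1 rose by 1.68 ± 0.25 in KO-labelled and 1.56 ± 0.25 in WT cells (limma adjusted p of these genes at most 1.74e-05 in KO-labelled and 3.76e-05 in WT cells).

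Genes with a profile over the 12 libraries most like that of a member were named by Pearson correlation of the deposited values, as a description. The libraries fall into 2 times and the members were lower at 12 h, so genes that fell with time are favoured. For Gadd45g 1129 of 12435 genes had a correlation over 0.9 and 77 over 0.95. The 5 highest were Ldlrad4, a membrane inhibitor of TGF-β signalling (0.988), Id2, an inhibitor of E proteins (0.983), Tnfrsf1b, a TNF receptor (0.977), the tyrosine kinase gene Fes (0.976) and the adenylate kinase gene Ak7 (0.976). Like Gadd45g, each of the 5 had its lowest group mean in WT cells at 12 h. Picking genes by correlation with Gadd45g favours this pattern, so it is no separate result. Ldlrad4, for one, averaged 6.74 in KO-labelled and 5.87 in WT libraries at 12 h, and 8.72 in KO-labelled and 8.63 in WT libraries at 3 h. Id2 averaged 10.98 in KO-labelled and 10.13 in WT libraries at 12 h, and 12.68 in KO-labelled and 12.38 in WT libraries at 3 h.

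**Figure D4:**
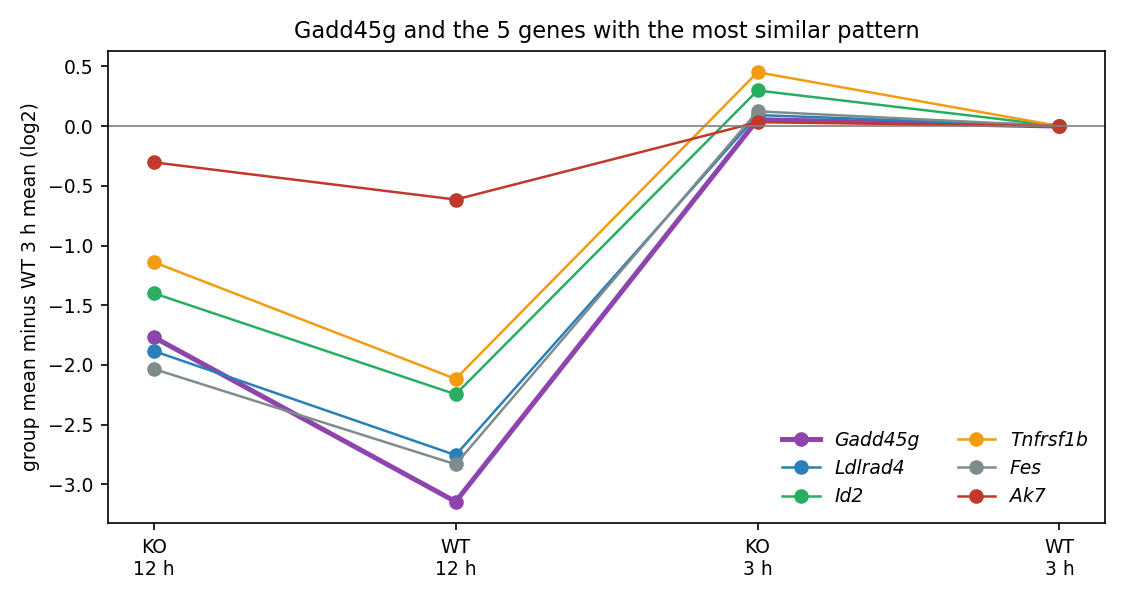
Group mean minus the WT 3 h mean (vertical axis, log2 of the deposited values) of Gadd45g and the 5 genes with the highest Pearson correlation with it over 12 libraries, by group along the horizontal axis; lines only join the points of a gene. Each of the 6 genes is lowest in WT libraries at 12 h, with Gadd45g furthest down, at 6.18 against 9.32 in WT libraries at 3 h. Picking genes by correlation with Gadd45g favours this shared pattern.

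For Gadd45b 2484 genes had a correlation over 0.9 and 1390 over 0.95, the most of the family. Tsc22d2 (0.996) and the immediate early gene Ier5 (0.995) came first, followed by Slc9a9, Ddx10 and Arfrp1, each at 0.995. Ier5 averaged 12.80 in KO-labelled and 12.72 in WT libraries at 12 h, and 14.75 in KO-labelled and 14.82 in WT libraries at 3 h. For Gadd45a 60 genes exceeded 0.9 and 1 exceeded 0.95. They were led by Stat2, a transducer of interferon signals (0.953), Dtx3l, a ubiquitin ligase (0.941), the splicing kinase gene Srpk2 (0.940), the IL-7 receptor chain gene Il7r (0.937) and Epb41l4a (0.932). Il7r averaged 5.95 in KO-labelled and 6.69 in WT libraries at 12 h, and 9.10 in KO-labelled and 10.36 in WT libraries at 3 h.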

How the data were processed

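Per the labels' protocols, RNA taken up in Trizol and cleaned on RNeasy columns was made into TruSeq V2 libraries, a kit that does not mark strand, and read on a HiSeq. The authors deposited log2 normalized expression values. Per the submitters' processing notes the tools were Trim Galore, STAR, featureCounts and DESeq2, on mm10. Their versions and options are not given here. The transform is not named: 5663 of 24538 rows were at 0 in all 12 libraries, 0 rows in only some, and values ran from -2.37 to 20.1, the form of a regularised log. Counts and depth cannot be recovered, so precision rests on the spread between 3 libraries of a group. All 12 columns matched a sample title.

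Rows averaging 3 or more were fitted by limma 3.58.1 (R 4.3.3), with 1 mean per group over all 12 libraries, a trended eBayes prior and two-sided tests, with Benjamini-Hochberg adjustment over the 12436 kept genes; calls are adjusted p under 0.05. The members and lists were chosen with earlier results of these data known. Named genes are the members, Smad4, the 5 genes most correlated with each member, and a part of the genes picked from the lists. From each list and comparison up to 4 called genes with the largest difference were picked, or the largest where none was called. Not all genes picked with time are named, and Cxcr3, Il18rap and Ercc5 are among those left out. Map3k4, Ifng, Tbx21 by genotype, Nfkb1, Mapk14 and Map3k4 with time, Mapk12 by genotype, Gadd45gip1 and the overlapping E230016M11Rik are named beyond this rule, chosen after their values were seen. Positions and lengths are from GENCODE M21 (GRCm38) and promoters from RefSeq.

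Replicate numbers recur in each group. Deviations of same-numbered libraries from their group means correlated at 0.174 to 0.500 between genotypes at 12 h and 0.194 to 0.402 at 3 h. Between times they correlated at 0.207 to 0.432 in WT and 0.0637 to 0.368 in KO-labelled cells. By a low cut-off on these values the numbers were flagged as pairing libraries in all comparisons but the last. The flag does not establish pairing, and the main fit did not use the numbers. In each comparison replicate 2 had the highest correlation, and libraries of unlike number were not compared. Whether replicate 2 alone stands apart was not tested. A fit with the number as a block was 1 of 22 alternatives tried; others changed the prior, the filter, the scaling, the weights or the libraries. Counts and calls of the lists under these alternatives were added after seeing the data.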

Additional observations from a re-analysis of the deposited data

How the results depend on the processing

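Of the 12 member differences, 10 kept their direction under each of 22 alternatives, and no tested member changed its side of the threshold. Gadd45g at 3 h was near 0, became -0.039 without the 4 replicate 2 libraries, and ran from -0.080 to 0.25 when 1 library was left out (-0.0072 and -0.080 without KO replicates 2 and 3 at 3 h). Gadd45a at 12 h, untested, ran from -0.55 to 0.16. Gadd45a stayed lower with time (adjusted p up to 0.0410 in KO-labelled and 0.00351 in WT cells), as did Gadd45b. The replicate block changed no member's call and ended no list gene's call by genotype; it called 4 interferon gamma programme genes lower at 3 h in place of 3. Median centring moved the median of all genes with time by -0.13 in KO-labelled and -0.11 in WT cells, and split the calls in KO-labelled cells into 3459 higher and 5108 lower, against 4269 and 4184; under it Gadd45b stood at -2.06 in KO-labelled and -2.03 in WT cells. The count of all genes called by genotype depended far more on the settings. At 12 h, 83 became 39 without a trend in the prior, 40 without the filter, 167 with array weights, 226 with the replicate block and array weights, and 23 without the replicate 2 libraries. Leaving out 1 library gave 50 to 103, with 53 without KO replicate 1 at 12 h and 50 and 55 without WT replicates 1 and 2 at 12 h. At 3 h, 130 became 9 without a trend, 14 without the filter, 32 in a fit of the compared groups, 54 under array weights, while 200 were called under the replicate block. Leaving out 1 library gave 22 to 261: 22, 58 and 77 without KO replicates 1 to 3 and 36, 261 and 33 without WT replicates 1 to 3 at 3 h, 66 without KO replicate 2 and 71 and 83 without WT replicates 2 and 3 at 12 h. The list calls at 3 h were as sensitive. Those of Mapk14, Il18r1, Ifngr1, Il12rb2 and Smad3 each ended without a trend, without the filter and without KO replicates 1 or 2 or WT replicates 1 or 3 at 3 h, with adjusted p over all alternatives up to 0.202, 0.250, 0.227, 0.223 and 0.113. The cause was not tested.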
